A study of Mus musculus with 6 samples.

Results

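Glycolytic enzyme genes of the fully grown oocyte were followed through the probe sets that the platform annotation gives to 1 gene symbol among Hk1, Gpi1, Pfkl, Pfkm, Pfkp, Aldoa, Aldoc, Tpi1, Pgam1 and Pkm. The array held 21 such probe sets, of 45037 that were not controls, and they covered 9 of the 10 genes. Gpi1, the gene of glucose-6-phosphate isomerase, had no probe set with its symbol alone and was not analysed here. Of the 21 probe sets, 17 passed the filter on dim signals, which kept those whose value reached the median of the array in 3 or more of the 6 arrays.

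The groups were oocytes of XY females of B6.Y(TIR) and oocytes of their XX littermates, with 3 arrays each. B6.Y(TIR) mice carry a Y chromosome of Mus musculus domesticus from Tirano on the C57BL/6 background, on which XY animals can develop ovaries. All oocytes were at the germinal vesicle (GV) stage, before the first meiotic division resumes, when the nuclear envelope is still whole. Females of both groups were 25 to 29 days old, had received 5 IU of equine chorionic gonadotropin and were killed 45 to 47 hours later, and their oocytes had been stripped of cumulus cells by pipetting. Each array carried amplified RNA of 10 oocytes, so that fewer cells of a type and less RNA per cell cannot be told apart.

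Glycolysis turns glucose into pyruvate in a chain of cytosolic reactions. Hexokinase traps glucose as glucose 6-phosphate, phosphofructokinase makes the committed and most tightly controlled step, aldolase splits the sugar into triose phosphates, and pyruvate kinase yields pyruvate and ATP at the end. Mouse oocytes use glucose poorly by themselves and take up pyruvate that the surrounding cumulus cells make, and factors secreted by the oocyte raise glycolytic gene expression in those cells. Several steps are served by isozymes from separate genes that differ in tissue distribution, such as the muscle, liver and platelet types of phosphofructokinase.

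For the Actb control, the log2 ratio of signal at the 3' end to that at the 5' end, a measure of how complete the labelled RNA was, read 5.90, 5.20 and 5.61 in XY 1, XY 2 and XY 3, against 5.53, 3.87 and 4.0 in XX 1, XX 2 and XX 3. XX 1 lay with the XY arrays in this measure, while XX 2 and XX 3 lay below. Arrays correlated at 0.980 to 0.982 within XY, at 0.967 to 0.983 within XX and at 0.940 to 0.962 between XY and XX, over 12442 genes. Levels below are log2 of the quantile-normalized intensity plus 9, each gene is shown by its brightest kept probe set, and probe sets differ in brightness, so that a difference between 2 genes is read only across arrays.

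Of the 9 genes tested, 1 rose in XY oocytes and 0 fell (limma, adjusted p under 0.05). Over all 12442 genes tested, 7.86% rose and 5.34% fell, and with 9 genes 1 call is a share near this background. The split of all calls turned with the scaling: 978 rose and 665 fell here, 472 rose and 529 fell on the deposited scale, 482 rose and 1622 fell after median scaling, and 1423 rose and 586 fell with trimmed mean scaling. The XY and XX values did not overlap for 3 of the 9 genes, Pfkp, Aldoc and Pgam1, against 38.8% of all genes tested. An unadjusted p under 0.05 was found for 3 of 9, against 32.2% of all genes, and a change above 0 for 7 of 9, against 55.6%. Of the 17 kept probe sets 1 rose, against 5.08% of all kept probe sets, and 5 had groups that did not overlap, against 36.6%. The median log2 change of the 9 was 0.15, against 0.07 for all genes. Aldoc passed the filter through its XY arrays alone, so a difference between its groups was built into that count.

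**Figure D1:**
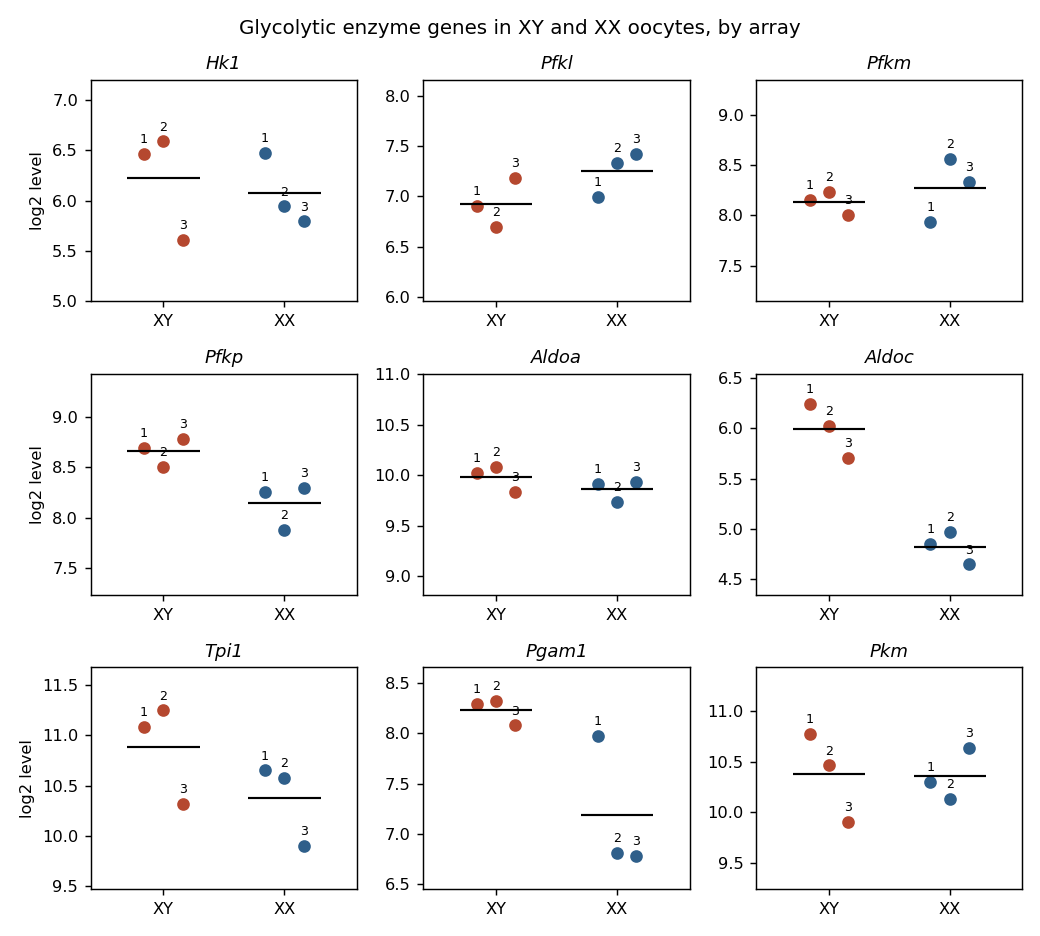
Log2 level of the 9 glycolytic enzyme genes with a probe set, each in its own panel, for the 3 XY arrays (left) and the 3 XX arrays (right). Points carry the replicate number, lines are group means, and every vertical axis spans the same range of log2 units. The groups are apart in Pfkp, Aldoc and Pgam1, and XX 1 sits close to the XY arrays in Pgam1.

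Hk1 encodes hexokinase 1, the entry enzyme of the pathway, which binds the outer mitochondrial membrane. Its probe set 1437974_a_at (chromosome 10) had log2 levels of 6.46, 6.59 and 5.61 in XY 1, XY 2 and XY 3, against 6.47, 5.94 and 5.79 in XX 1, XX 2 and XX 3. The groups overlapped, with XY 3 the lowest of the 6 arrays. The log2 change was 0.15 ± 0.30 (SE, n = 3 each, limma's adjusted p = 0.763), with a 95% confidence interval of -0.56 to 0.87. The other Hk1 probe set, 1420901_a_at, lay below the array median on every array, with deposited intensities of 2.09 to 6.34 in XY and 1.91 to 8.18 in XX.

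Phosphofructokinase was measured through the genes of all its isozymes, and none of them passed the test. Pfkp, the platelet type, had the largest change of them. Its probe set 1416069_at (chromosome 13) had log2 levels of 8.69, 8.50 and 8.78 in the XY arrays, against 8.25, 7.88 and 8.30 in the XX arrays. All XY values lay above all XX values. The change was 0.52 ± 0.18 (SE, limma's adjusted p = 0.0909), with an interval of 0.11 to 0.93, falling to 0.24 on the deposited scale and to 0.078 after median scaling. The other Pfkp probe sets, 1437759_at and 1430634_a_at, lay below the array median on every array.

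Pfkm, the muscle type (1416780_at, chromosome 15), had log2 levels of 8.15, 8.23 and 8.005 in XY, against 7.93, 8.56 and 8.33 in XX. The groups overlapped, and XX 1 was the lowest of the 6. The change was -0.14 ± 0.19 (SE, adjusted p = 0.640), with an interval of -0.60 to 0.31. Within each array, the difference Pfkp minus Pfkm was 0.54, 0.27 and 0.78 log2 units in XY, against 0.32, -0.68 and -0.04 in XX. A difference of 2 genes within an array is not moved by a scaling factor common to that array, other than through the pseudocount. Quantile normalization is not such a common factor and can move it. Pfkp minus Pfkm was larger in XY by 0.66 ± 0.33 (SE, exact two-sided permutation p = 0.2, where 0.1 is the smallest possible), and the groups overlapped. With XX 1 as the lone XX array it was larger by 0.21.

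Pfkl, the liver type (chromosome 10), gave opposite signs in different probe sets. Probe set 1450269_a_at, which stood for the gene, had log2 levels of 6.91, 6.69 and 7.19 in XY, against 6.99, 7.33 and 7.42 in XX, a change of -0.32 ± 0.19 (SE, adjusted p = 0.292). A change of -0.37 ± 0.24 was found in 1439148_a_at (adjusted p = 0.336 over all kept probe sets). In 1453541_at the levels were 5.41, 5.66 and 5.80 in XY, against 5.38, 4.94 and 4.91 in XX, a change of 0.54 ± 0.20 (adjusted p = 0.120). That probe set was the dimmest of the 3 and lay at or above the array median on 3 XY arrays and 1 XX array. The direction of Pfkl therefore depended on the probe set read, and the mean of its probe sets gave -0.05 (adjusted p = 0.860). Pfkl minus Pfkm within an array changed by -0.18 ± 0.23 (exact permutation p = 0.6).

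**Figure D2:**
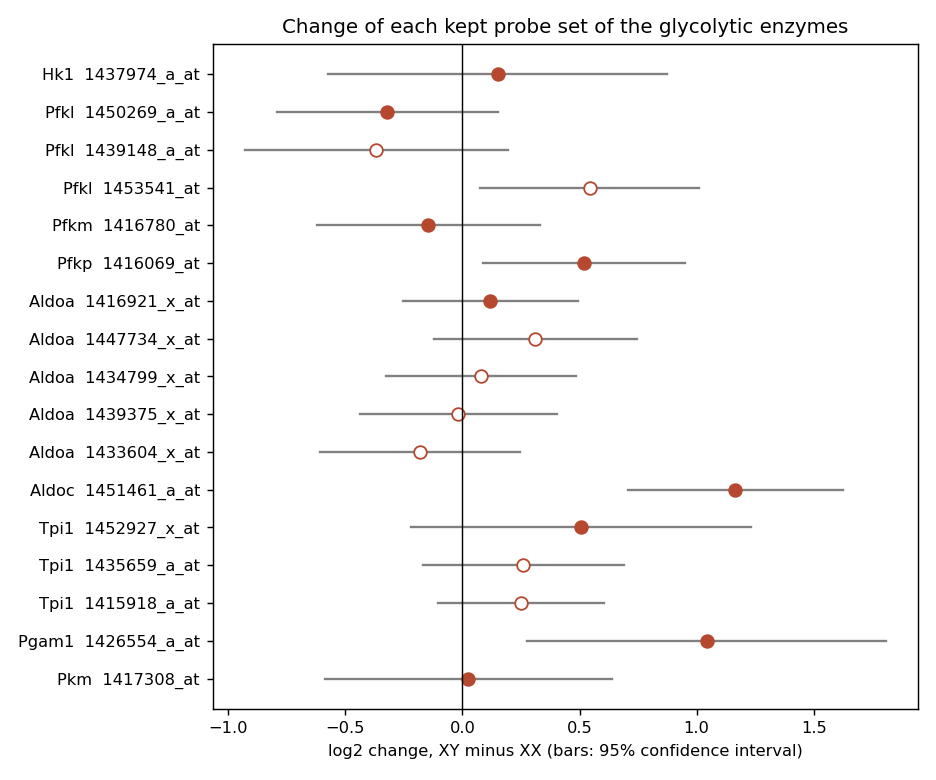
Log2 change, XY minus XX, of the 17 kept probe sets of the glycolytic enzyme genes, with 95% confidence intervals from limma. Filled points are the probe sets that stood for their gene. The intervals of Aldoc, Pgam1, Pfkp and 1453541_at of Pfkl lie above 0 before adjustment, whereas the other Pfkl probe sets have points below 0.

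Aldolase was the step with the one member that passed the test. Aldoc, the brain-type aldolase C, rose in XY oocytes, though its signal was dim. Its probe set 1451461_a_at (chromosome 11) had deposited intensities of 73.0, 54.7 and 42.9 in XY 1, XY 2 and XY 3, against 17.1, 21.9 and 15.7 in XX 1, XX 2 and XX 3. Every XY array lay above the highest XX array, and XX 1 lay with the other XX arrays.

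On the log2 scale Aldoc averaged 5.99 ± 0.27 in XY and 4.82 ± 0.16 in XX (SD, n = 3 each). The change of 1.16 ± 0.19 (SE, limma's adjusted p = 0.0124) had an interval of 0.72 to 1.61, and 96.7% of genes tested had a change at or below it. All 3 XY arrays were at or above the array median for this probe set, and 0 of 3 XX arrays were, so the size of the change rests on XX signals that were not shown to be above background. The second probe set of Aldoc, 1424714_at, lay below the median on every array, with deposited intensities of 2.24 to 11.2 in XY and 1.92 to 20.0 in XX. With no filter the gene kept its call among genes (adjusted p = 0.0301), but probe set by probe set over all 45037 the adjusted p was 0.0548, where 1.37% were called. Without XY 2 the adjusted p was 0.0509, with a change of 1.17.

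The start of Aldoc is shown because it was the member that passed the test, and that of Pgam1 because its change was next in size. Both run from 250 bases before to 50 after an annotated start, on the plus strand, as given by RefSeq for build GRCm38.p6, for Aldoc at chr11:78322823-78323122 and for Pgam1 at chr19:41911621-41911920. Capitals mark ACGTG on either strand (CACGT on the strand shown), the core letters of the hypoxia response element. RefSeq also lists another Aldoc start, which is not printed.
Aldoc: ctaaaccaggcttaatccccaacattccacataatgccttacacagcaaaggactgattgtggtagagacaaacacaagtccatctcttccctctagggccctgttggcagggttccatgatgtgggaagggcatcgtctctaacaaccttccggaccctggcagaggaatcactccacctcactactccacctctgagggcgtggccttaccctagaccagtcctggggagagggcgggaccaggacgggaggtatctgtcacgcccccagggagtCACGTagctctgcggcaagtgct
Pgam1: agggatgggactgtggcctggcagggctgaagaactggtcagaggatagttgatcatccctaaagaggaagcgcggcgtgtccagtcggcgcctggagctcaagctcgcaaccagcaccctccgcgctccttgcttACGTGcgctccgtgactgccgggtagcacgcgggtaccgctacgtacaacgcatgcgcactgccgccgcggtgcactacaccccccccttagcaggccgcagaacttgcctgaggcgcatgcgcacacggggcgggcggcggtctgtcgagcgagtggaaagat
In Aldoc the letters begin at base 28 after the start, and in Pgam1 at base -114, before it. Among the 18 start windows of the 10 genes, 8 windows of 6 genes hold ACGTG, against 19.6% of 32851 windows of all genes in the table. Windows of a gene can overlap, and the 2 Aldoa windows with a match, at bases -126 and -202 of their own starts, hold the same site. The GC box letters GGGCGG, on either strand, were in 9 of the 18, against 35.7% of all windows. CACGTG, the E-box, which contains ACGTG, was in 1 window, of Pfkm, against 7.15%. Such matches describe letters and do not show that a factor binds there.

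Aldoa, the widely expressed aldolase A (chromosome 7), had 5 kept probe sets, all of a type whose probes may also match other sequences. The probe sets that stood for Tpi1, Pgk1, Adpgk, Tkt and Pgd were also of this type. Probe set 1416921_x_at had log2 levels of 10.02, 10.08 and 9.83 in XY, against 9.92, 9.74 and 9.93 in XX. The groups overlapped, and the change was 0.12 ± 0.15 (SE, adjusted p = 0.615), with an interval of -0.23 to 0.47. Over the 5 probe sets the changes ran from -0.18 to 0.31, with adjusted p from 0.295 to 0.958. The sign of the Aldoa change turned on the deposited scale (-0.22) and after median scaling (-0.39).

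Within each array, Aldoc minus Aldoa was -3.78, -4.06 and -4.13 log2 units in XY, against -5.06, -4.76 and -5.28 in XX. The difference was larger in all 3 XY arrays than in any XX array, by 1.05 ± 0.18 (SE, exact permutation p = 0.1, the smallest that 3 against 3 can give). It was 1.03 with XX 1 as the lone XX array. Over 7 other processing settings it ran from 0.64 with pseudocount 32 to 1.52 with median scaling, so its size depended on the processing. This compares the paralogs with each other and does not show that Aldoa stayed the same. Aldoc entered the tested genes through its XY arrays alone, so its being higher there was in part set by the filter, and the separation supports nothing beyond the values.

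Tpi1 encodes triose phosphate isomerase, which interconverts the products of aldolase (chromosome 6). Probe set 1452927_x_at had log2 levels of 11.08, 11.25 and 10.32 in XY, against 10.65, 10.58 and 9.90 in XX. XY 3 and XX 3 were the low arrays of their groups, and the groups overlapped. The change was 0.51 ± 0.31 (SE, adjusted p = 0.288). Probe sets 1435659_a_at and 1415918_a_at had changes of 0.26 ± 0.18 and 0.25 ± 0.15, with adjusted p of 0.372 and 0.303. In 1415918_a_at the XY levels of 9.61, 9.48 and 9.50 lay above the XX levels of 9.17, 9.33 and 9.33. The change of the gene was 0.14 on the deposited scale and -0.019 after median scaling.

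Pgam1 encodes phosphoglycerate mutase 1, which moves the phosphate of 3-phosphoglycerate on the way to pyruvate (chromosome 19). Its probe set 1426554_a_at had deposited intensities of 324, 245 and 222 in XY 1, XY 2 and XY 3, against 194, 112 and 120 in XX 1, XX 2 and XX 3 (log2 levels 8.29, 8.32 and 8.08 against 7.97, 6.81 and 6.78). XX 1 lay just below the lowest XY array and well above the other XX arrays. The change was 1.04 ± 0.32 (SE, limma's adjusted p = 0.0735), with an interval of 0.28 to 1.80. Without XX 1 it was 1.44 ± 0.14 and passed (adjusted p = 0.00554), and with XX 1 as the lone XX array it was 0.25 ± 0.17 (adjusted p = 0.440). That last setting was added after the data were seen, its spread comes from the 3 XY arrays, and XX 1 is assumed to vary like them.

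The Actb control ratio was higher in the XY arrays and XX 1 than in XX 2 and XX 3. With that ratio as a covariate, the change of Aldoc was 1.12 ± 0.26 (adjusted p = 0.0873), and that of Pgam1 was 0.35 ± 0.26 (adjusted p = 0.471). With XX 1 as the lone XX array, Aldoc changed by 1.09 (adjusted p = 0.110). Whether the 2 genes differ in this was not tested.

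**Figure D3:**
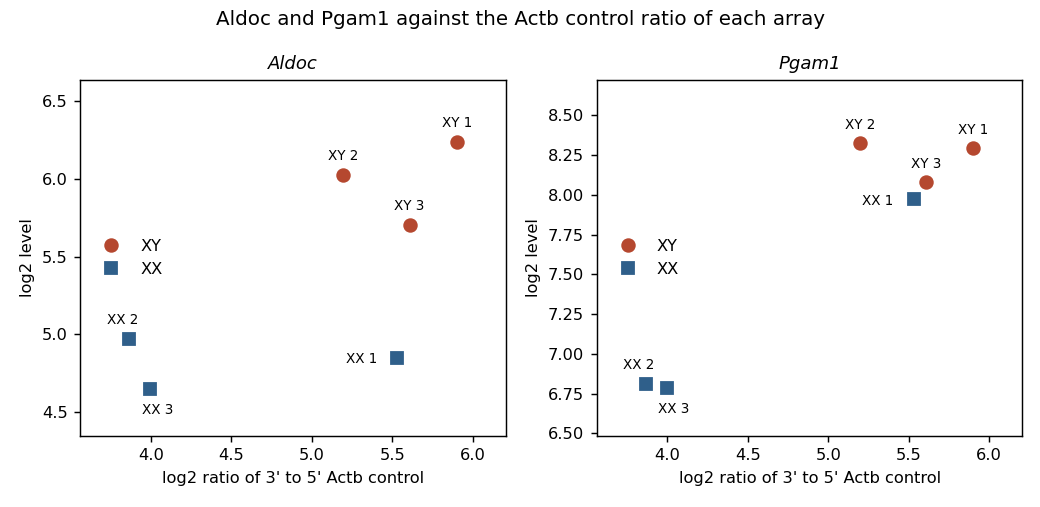
Log2 level of Aldoc (left) and Pgam1 (right) against the log2 3' over 5' signal ratio of the Actb control, 1 point per array (circles XY, squares XX). XX 1, at a ratio of 5.53, has an Aldoc level of 4.85 with the XX arrays and a Pgam1 level of 7.97 beside the XY arrays.

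Pkm encodes the muscle and embryonic pyruvate kinase, which makes pyruvate (chromosome 9). Probe set 1417308_at had log2 levels of 10.78, 10.46 and 9.90 in XY, against 10.30, 10.13 and 10.63 in XX. XY 1 was the highest and XY 3 the lowest of the 6 arrays, so the XX range lay inside that of XY. The change was 0.026 ± 0.26 (SE, adjusted p = 0.954), with an interval of -0.57 to 0.63, and its sign turned with the deposited values (-0.34), median scaling (-0.50) and trimmed mean scaling (-0.024).

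Scaling moved the changes of the members and of all genes, but not by equal amounts. The median change of all genes was 0.07 with quantile normalization, 0.18 with trimmed mean scaling, -0.12 on the deposited scale and -0.27 after median scaling. Relative to these medians, Aldoc was at 1.09, 1.31, 1.38 and 1.40 in the same order, and Pgam1 was at 0.97, 0.99, 0.99 and 0.99. Hk1 went up, at 0.08, 0.285, 0.319 and 0.327, and Pkm went down, at -0.044, -0.202, -0.216 and -0.225. Aldoc passed under each of the 4 scalings, and Pgam1 under 0 of them. The filter used the deposited values under each scaling, so Aldoc was tested through its XY arrays alone in all 4. Its repeated pass is therefore no separate support. Of the 9 members, 6, 5, 5 and 5 lay above the median of all genes, and 7, 6, 5 and 4 had a change above 0, in the same order of scalings.

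**Figure D4:**
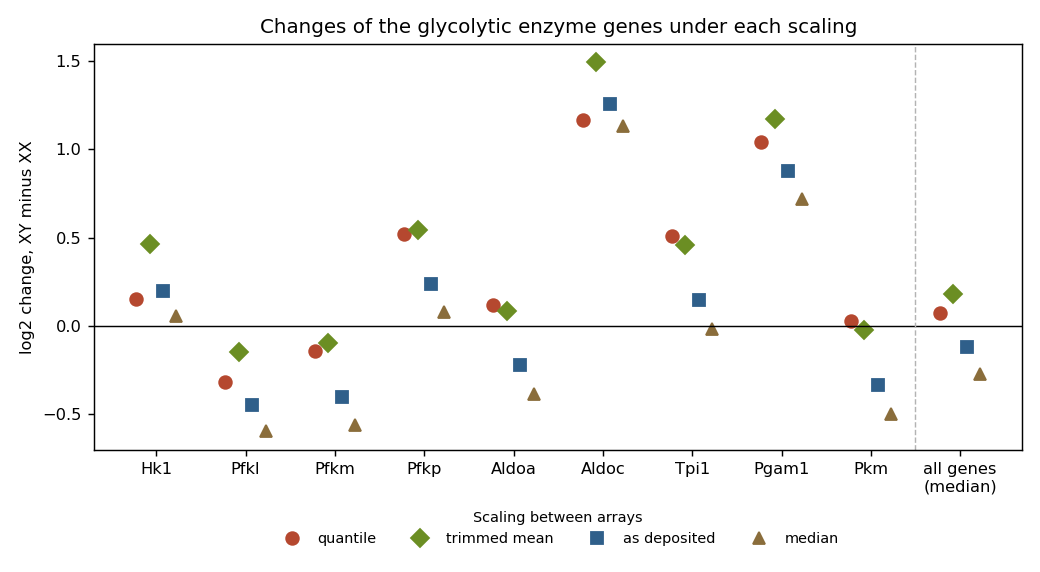
Log2 change, XY minus XX, of the 9 glycolytic enzyme genes and the median of all 12442 genes, under quantile normalization, trimmed mean scaling, no further scaling (as deposited) and median scaling. Aldoc and Pgam1 stay above 0 under each, at 1.13 to 1.49 and 0.72 to 1.17, whereas Aldoa, Tpi1 and Pkm lie on both sides.

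Glycolytic enzymes and isozymes outside the 10 genes were listed in a group of 16, of which 12 had a probe set with their symbol alone and 6 were tested. By limma's adjusted p 0 of the 6 passed, and 2 of them, Hk2 and Gapdhs, had an unadjusted p under 0.05. Hk2, the insulin-regulated hexokinase 2, had log2 levels of 7.64, 7.97 and 7.87 in XY, against 7.60, 7.22 and 7.28 in XX, a change of 0.45 ± 0.17 (adjusted p = 0.121). Gapdhs, a sperm-specific glyceraldehyde-3-phosphate dehydrogenase gene, had log2 levels of 6.16, 6.30 and 5.71 in XY, against 5.41, 5.43 and 4.10 in XX. Its signal was dim, and its change was 1.08 ± 0.38 (adjusted p = 0.0988). Without XX 3, the lowest array, the change was 0.61 (adjusted p = 0.152). X-linked Pgk1, phosphoglycerate kinase 1, had log2 levels of 10.99 to 11.01 in XY, against 10.96, 10.99 and 10.42 in XX. XX 3 was the low array, and the other XX values nearly met the XY values. Its change was 0.21 ± 0.19 (adjusted p = 0.480). Adpgk, the ADP-dependent glucokinase, had a change of -0.19 (adjusted p = 0.506) by its brightest probe set. The mean of its kept probe sets gave -0.52 and passed (adjusted p = 0.0487). Pklr, the liver and red cell pyruvate kinase, had a change of 0.31 (adjusted p = 0.475) and Bpgm, bisphosphoglycerate mutase, of 0.044 (adjusted p = 0.852).

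Gapdh was represented by control probe sets alone and was not tested. Its 3' control had deposited intensities of 1405, 1082 and 1024 in XY, against 821, 735 and 1055 in XX, and its 5' control read 85.5, 51.6 and 54.2 in XY, against 44.6, 90.3 and 91.4 in XX. The 3' signal was lower than every XY array in XX 1 and XX 2 but not in XX 3.

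Among genes of glucose uptake and of flux control, 1 of 16 tested rose and 2 fell, a share near the 13.2% called over all genes (7.86% higher, 5.34% lower). Pfkfb2, one of the enzymes that make and break fructose 2,6-bisphosphate, the activator of phosphofructokinase, had log2 levels of 6.49, 6.31 and 5.68 in XY, against 7.29, 7.42 and 7.56 in XX. It fell by 1.26 ± 0.23 on the log2 scale (SE, adjusted p = 0.0178) in probe set 1429486_at. The mean of its kept probe sets did not pass (-0.24, adjusted p = 0.492), since 1422091_at and 1422092_at had changes of 0.46 and 0.07. In all, the call ended in 3 of 11 other processing settings, and in 3 of 6 fits that left out 1 array.

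Slc2a8, the gene of the intracellular glucose transporter GLUT8, had log2 levels of 4.69, 5.43 and 4.36 in XY, against 5.84, 5.99 and 5.91 in XX, and fell by 1.09 ± 0.27 (adjusted p = 0.0414). Its signal was dim, and XY 1 and XY 3 lay below the array median. The size of the fall therefore rests on signals not shown to be above background. The change was -1.40 with pseudocount 1 and -0.68 with pseudocount 32. The call ended in 7 of 10 other processing settings, and in 5 of 6 fits that left out 1 array. Fbp2, the muscle type of fructose bisphosphatase, which reverses the phosphofructokinase step, had log2 levels of 8.77, 9.21 and 9.26 in XY, against 8.13, 8.30 and 8.39 in XX. It rose by 0.80 ± 0.18 (adjusted p = 0.0324). The call ended in 5 of 11 other processing settings and in 4 of 6 fits that left out 1 array. Among these were the deposited scale (0.51, adjusted p = 0.323) and median scaling (0.35, adjusted p = 0.368), where the change relative to the median of all genes was 0.63 and 0.62. With XX 1 as the lone XX array the adjusted p of these 3 genes ran from 0.143 to 0.280.

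In the pentose phosphate pathway, which draws on the same glucose 6-phosphate and yields NADPH, 0 of 7 tested genes passed by limma, and 1 had an unadjusted p under 0.05. Taldo1, transaldolase, had log2 levels of 10.33, 10.09 and 10.22 in XY, against 9.56, 9.76 and 9.90 in XX, a change of 0.48 ± 0.16 (adjusted p = 0.0877). Pgls, 6-phosphogluconolactonase, had a change of 0.47 ± 0.21 (adjusted p = 0.173). Tkt, transketolase, had 12.61, 12.46 and 12.54 in XY, against 12.49, 11.43 and 12.001 in XX, a change of 0.57 ± 0.26 (adjusted p = 0.184). Pgd, 6-phosphogluconate dehydrogenase, had 11.00, 11.13 and 11.18 in XY, against 11.19, 10.19 and 10.31 in XX, a change of 0.54 ± 0.27 (adjusted p = 0.214). In Tkt XX 1 lay within the XY range and in Pgd just above it, and in both genes XX 2 and XX 3 lay below it. With XX 1 as the lone XX array their changes were 0.06 and -0.09. The mean of the kept probe sets gave 0.25 for Tkt (limma's adjusted p = 0.311) and 0.36 for Pgd (adjusted p = 0.272).

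**Figure D5:**
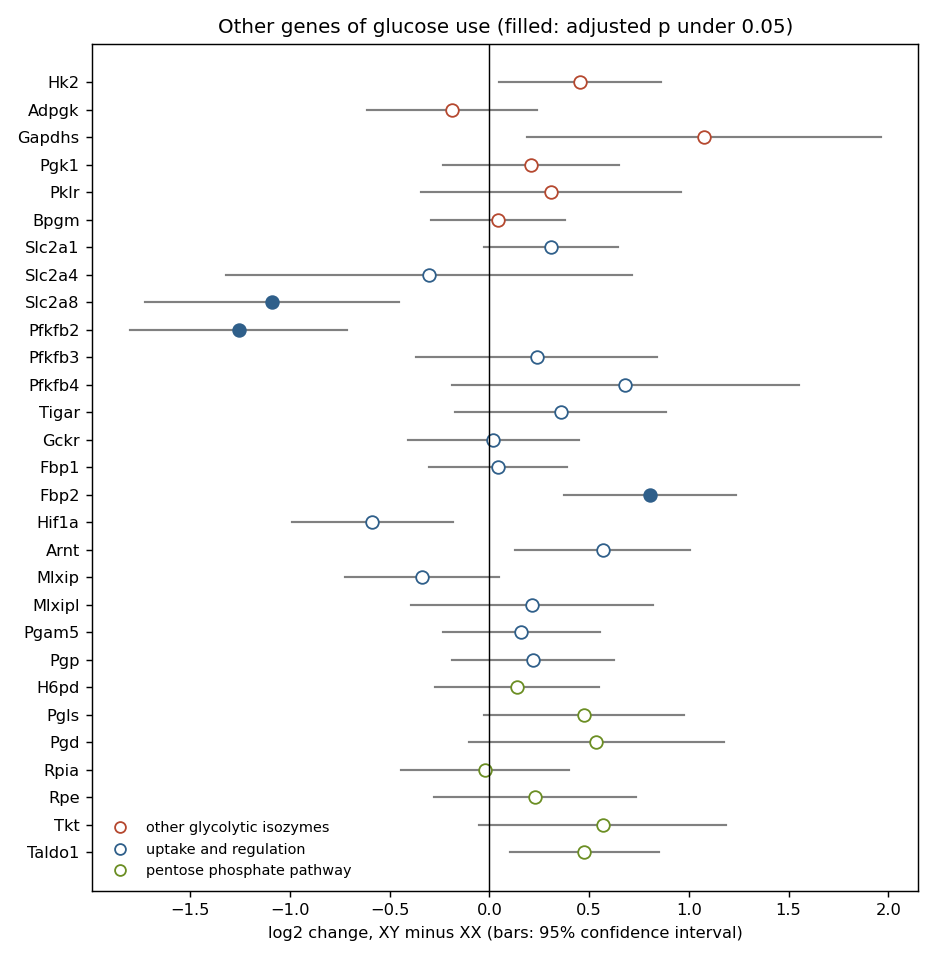
Log2 change, XY minus XX, of the 29 tested genes of the other glycolytic isozymes (6), of glucose uptake and regulation (16) and of the pentose phosphate pathway (7), with 95% confidence intervals. Filled points passed an adjusted p of 0.05. Slc2a8 and Pfkfb2 lie below 0 and Fbp2 above it.

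Of the 45 pathway genes outside the 10, 29 were tested, 1 rose and 2 fell, where 13.2% of all genes were called, with a median change of 0.22 against 0.07 for all genes.

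Oocyte markers were bright on every array, with a summed quantile-normalized intensity of 101100 to 106400 in XY and 113900 to 121100 in XX over 15 of 16 genes with a probe set. For granulosa and cumulus cells, the main glycolytic cells of the follicle, 17 of 20 markers had a probe set, and their sum was 2593 to 2972 in XY and 2436 to 2973 in XX. None of these was listed at 0, and their levels differed widely. Amh, a defining granulosa gene, read 2.64 to 5.65 in XY and 3.26 to 7.34 in XX, below the array median throughout. Nr5a2 read 721 to 800 in XY and 710 to 940 in XX, and Fshr 109 to 146 and 40.9 to 112. Among markers that missed the filter, Ptx3 and Tnfaip6 were higher in each XY array than in any XX array. The groups overlapped for Amh, Inhba and Cd44, which missed it too. The sum weighs the brightest probe sets most. Of 12 granulosa and cumulus markers that passed the filter, 2 rose and 0 fell, where 7.86% of all genes rose and 5.34% fell. A change above 0 was found for 9 of the 12, against 55.6% of all genes. Their median log2 change was 0.23, against 0.07 for all genes. The 2 that rose, Inha and Npr2, are named after their values were seen. Inha, the inhibin alpha subunit, read 252, 219 and 176 in XY 1, XY 2 and XY 3, against 139, 50.8 and 37.6 in XX 1, XX 2 and XX 3, a log2 change of 1.58 ± 0.41 (SE, limma's adjusted p = 0.0475). Npr2, the receptor of C-type natriuretic peptide, read 31.3, 44.8 and 53.7 in XY, against 4.82, 11.1 and 7.94 in XX, a log2 change of 1.62 ± 0.22 (adjusted p = 0.00845). Like Aldoc, Npr2 passed the filter through its XY arrays alone, since the array median was 28.9 on this scale. A difference between its groups was therefore built into its being tested. XY and XX values did not overlap for 4 of the 12 markers, against 38.8% of all genes tested. Inha, Npr2 and Cyp11a1 were higher in XY among these, and Kitl was lower (log2 change -0.63 ± 0.19, adjusted p = 0.0715). Theca and stroma markers summed to 479 to 665 in XY and 315 to 378 in XX (8 of 8 genes), and blood markers to 219 to 255 in XY and 180 to 199 in XX (7 of 8 genes). The summed levels of the theca and stroma and of the blood markers were higher in each XY array than in any XX array. The sum of the oocyte markers was lower in each XY array. By limma, 0 of 4 tested theca and stroma markers were called. All 4 had a change above 0, with a median of 0.93 against 0.07 for all genes. Dcn, with the largest of the 4, changed by 1.85 ± 0.49 (SE) and just missed the call (limma's adjusted p = 0.05). Of 3 tested blood markers 1 rose and 0 fell, and of 15 tested oocyte markers 0 rose and 2 fell. The groups did not overlap for 1 of 4, 1 of 3 and 8 of 15, in that order, against 38.8% of all genes. The part of these marker genes, Inha and Npr2 included, in the Aldoc result was not tested.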

How the data were processed

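Amplified RNA of 10 oocytes per female, from 3 XY and 3 XX females, was labelled with biotin and hybridised to Affymetrix 3' arrays, per the labels. The deposited values are linear intensities, 1 per probe set, made with MAS5 per the submitters' processing notes. Its version and settings are not stated there. Intensities were quantile-normalized, 9 was added (their 25th percentile as deposited) and log2 was taken. Of 45037 probe sets, 64 controls not counted, 22997 were at or above the array median on at least 3 arrays. The brightest kept probe set with 1 symbol stood for a gene. R 4.3.3 and limma 3.58.1 (lmFit, eBayes, Benjamini-Hochberg over all 12442 genes) compared XY with XX, and differences of 2 genes were compared by exact permutation. The code was tested on simulated data. The number of arrays limits the precision.

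All 10 genes and their probe sets are named, as are all tested isozymes outside them. In the regulator and pentose phosphate lists, genes past the threshold are named, or otherwise the 4 with the smallest p. The members and lists were chosen with earlier results of these data known. Alternatives covered scaling, pseudocount, filter, probe set choice, variance model, replicate block, the Actb ratio and left-out arrays. Start windows came from RefSeq (GRCm38.p6), whose build was not used for array values.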

Additional observations from a re-analysis of the deposited data

How the results depend on the processing

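Over all 12442 genes 1643 were called, against 1001 with the deposited values, 2174 with pseudocount 32 and 2414 with a trended variance. With the 70th percentile filter 2185 of 8466 genes were called, and with no filter 913 of 18193. The replicate block gave 679 and the Actb ratio as covariate 236. With 1 array left out 487 to 3230 were called, the lowest without XY 2 and the highest without XX 1. Of the member genes 1 was called, against 2 with pseudocount 32 or a trended variance and 0 with the Actb covariate. With 1 array left out 0 to 2 members were called (0 without XY 2, 2 without XX 1). The count over all genes moved the same way in these settings, so the member counts are not read as particular to the members. Member probe sets called numbered 1, against 2 with pseudocount 32 or a trended variance and 0 with the Actb covariate. They numbered 0 with no filter, where 1.37% of all probe sets were called, and 0 to 3 with 1 array left out. Other pathway genes called numbered 3, against 1 with the deposited values or no filter and 5 with the 70th percentile filter. They numbered 0 with the replicate block or the Actb covariate, and 0 to 7 with 1 array left out.

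Same-numbered arrays did not deviate together (r = -0.10, 0.001 and -0.043). These values cannot decide whether the numbers pair the samples, since each group has few arrays and XX 1 lay apart from the other XX arrays. The replicate block left the count of called members at 1. Aldoc kept its call in 9 of 10 other processing settings, at 0.76 to 1.49, and was not tested under the 70th percentile filter. Except with no filter, it was tested in these settings through its XY arrays alone. Pgam1 passed with pseudocount 32 (0.93, adjusted p = 0.0453), the 70th percentile filter (adjusted p = 0.0402) and a trended variance (adjusted p = 0.0341). None of the changes that turned sign was called in the main setting. With the deposited values they were Aldoa -0.22, Pkm -0.34, Pgk1 -0.17 and Bpgm -0.19. With median scaling they were Aldoa -0.39, Tpi1 -0.019, Pkm -0.50, Pgk1 -0.34, Bpgm -0.36, Taldo1 -0.04 and Pgd -0.015, and with trimmed mean scaling Pkm -0.024. With the mean of probe sets they were Bpgm -0.079 and Pfkl minus Pfkm 0.097. With the Actb covariate they were Hk1 -0.16, Pfkm 0.19, Bpgm -0.044 and Pgd -0.0075. With XX 1 alone they were Hk1 -0.24, Pfkm 0.19, Pklr -0.051, Bpgm -0.063 and Pgd -0.092. With 1 array left out, Hk1 ran from -0.035 to 0.46, Pkm from -0.17 to 0.27 and Bpgm from -0.030 to 0.090. The cause of these turns was not tested. Dim probe sets, such as that of Aldoc in XX, were limited by signal near the array median or below it.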

Other observations

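Genes of the hypoxia response, which controls many glycolytic genes in other cells, were looked at after their values were seen. Hif1a, the oxygen-sensitive subunit, had log2 levels of 11.92, 11.87 and 11.84 in XY, against 12.17, 12.64 and 12.58 in XX, a change of -0.59 ± 0.17 (SE, limma's adjusted p = 0.0645). Its kept probe sets differed in size: 1448183_a_at had 8.31, 6.43 and 7.07 in XY, against 9.92, 9.28 and 9.51 in XX, a change of -2.30 ± 0.45 (adjusted p = 0.0249 over all kept probe sets), and 1416035_at had a change of -0.75 (adjusted p = 0.0825). Arnt, the partner subunit, had 9.41, 9.26 and 9.23 in XY, against 9.03, 8.44 and 8.73 in XX, a change of 0.57 ± 0.19 (adjusted p = 0.0854). Of the other kept Arnt probe sets, 1419996_s_at and 1421721_a_at had changes of 0.21 and 0.22 (adjusted p = 0.558 and 0.512 over all kept probe sets). In 1449696_at the change was -0.61 (adjusted p = 0.442), opposite in sign. Neither Hif1a nor Arnt passed the test by its brightest probe set. XY and XX values of those probe sets did not overlap for either gene, as for 38.8% of all genes tested.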
